A study of Mus musculus with 4 samples.

Results

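The genes described here are 42 genes of the cell cycle, chosen by name and followed in 4 single-cell RNA-seq libraries of mouse lungs that carried HKP1 tumours. Of the 42 genes, 15 act at the start or in the course of S phase, 24 act in G2 and mitosis, and 3 (Stmn1, Hmgb2 and Tubb4b) are high in dividing cells but also have other uses. All 42 had a column in all 4 libraries.

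HKP1, a line of mouse lung adenocarcinoma cells, forms lung tumours when injected into a tail vein. Each mouse was a female C57BL/6 animal of 8 weeks that received 150000 HKP1 cells, and the animals were put into treatment arms by tumour bioluminescence on day 6. The irradiated arm had 4 Gy on each of 3 days, day 10 to day 12, and the mock arm had 0 Gy. The lungs of 4 mice per treatment were collected between 24 and 48 h after irradiation ended. Live cells were sorted on CD45, a surface protein of blood cells, into a CD45-negative and a CD45-positive library per treatment. The tumour and its host strain were therefore common to all groups, and each group is 1 library in which the mice cannot be told apart. No test between groups can be made, and every ratio below compares 2 libraries.

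After removal of computed doublets there were 4164 CD45-negative cells at 4 Gy and 5693 at 0 Gy, and 9000 CD45-positive cells at 4 Gy and 5180 at 0 Gy. The cells kept held 11677446 to 31876676 UMIs per library (unique molecular identifiers, each 1 counted RNA molecule), and the median cell held 1878 to 3018.5. Pairs of libraries shared 3 to 17 cell barcodes, at most 0.394% of the smaller library. Ptprc, which encodes CD45, had 8.99 CPM (UMIs of a gene scaled to a total of 1e+06) at 4 Gy and 12.9 CPM at 0 Gy in the negative sort, and 916 CPM at 4 Gy and 859.5 CPM at 0 Gy in the positive sort. Cell classes were gated on marker genes, and 86.8% to 92.3% of the cells of a library fell in a class.

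As background, a cell that commits to division first makes the enzymes that supply nucleotides and the proteins that open replication origins, under the E2F transcription factors. Later, in G2 and mitosis, it makes cyclin B, its kinase and the proteins of the spindle, the centromere and the anaphase-promoting complex. Many genes of this later wave carry a pair of promoter elements: the cell cycle genes homology region (CHR), through which the MuvB complexes DREAM and B-MYB-MuvB act, and CCAAT boxes, bound by NF-Y. In most of the adult lung few cells divide, while tumour cells and activated lymphocytes do.

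The promoters of 6 members are printed because they show the letters counted over both waves below, and how far single genes depart from their wave: 3 of the mitotic wave (Ube2c, Top2a, Cdk1) and 3 of the S-phase wave (Mcm5, Mcm6, Rrm1). They are RefSeq promoters of build GRCm38.p6, from 250 bases before to 50 bases after the gene's start, on the gene's strand and 5′ to 3′: Ube2c at chr2:164769679-164769978, plus strand, Top2a at chr11:99024140-99024439, minus strand, Cdk1 at chr10:69352863-69353162, minus strand, Mcm5 at chr8:75109259-75109558, plus strand, Mcm6 at chr1:128359656-128359955, minus strand, and Rrm1 at chr7:102441445-102441744, plus strand. Capitals mark every match, on either strand, to the CHR letters TTTGAA or TTCGAA, to CCAAT, or to the E2F letters TTTCCCGC, TTTCGCGC, TTTGCCGC and TTTGGCGC; matches may overlap.
Ube2c: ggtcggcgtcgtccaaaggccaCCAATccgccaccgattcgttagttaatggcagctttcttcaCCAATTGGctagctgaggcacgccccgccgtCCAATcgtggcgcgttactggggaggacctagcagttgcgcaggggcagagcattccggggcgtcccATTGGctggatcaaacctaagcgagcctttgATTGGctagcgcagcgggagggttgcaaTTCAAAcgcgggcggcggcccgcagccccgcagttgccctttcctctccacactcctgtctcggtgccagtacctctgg
Top2a: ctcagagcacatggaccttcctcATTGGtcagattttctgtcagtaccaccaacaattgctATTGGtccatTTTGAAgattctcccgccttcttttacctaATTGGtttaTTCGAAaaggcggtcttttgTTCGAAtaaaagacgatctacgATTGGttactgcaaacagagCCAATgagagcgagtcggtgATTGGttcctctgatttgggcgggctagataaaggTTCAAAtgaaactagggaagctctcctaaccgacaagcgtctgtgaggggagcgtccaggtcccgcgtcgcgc
Cdk1: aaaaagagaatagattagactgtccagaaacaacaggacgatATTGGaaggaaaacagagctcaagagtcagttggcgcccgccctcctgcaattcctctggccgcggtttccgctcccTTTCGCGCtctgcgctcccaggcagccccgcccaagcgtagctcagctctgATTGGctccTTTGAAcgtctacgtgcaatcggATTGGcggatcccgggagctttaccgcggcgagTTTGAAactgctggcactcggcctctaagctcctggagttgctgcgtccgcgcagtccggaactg
Mcm5: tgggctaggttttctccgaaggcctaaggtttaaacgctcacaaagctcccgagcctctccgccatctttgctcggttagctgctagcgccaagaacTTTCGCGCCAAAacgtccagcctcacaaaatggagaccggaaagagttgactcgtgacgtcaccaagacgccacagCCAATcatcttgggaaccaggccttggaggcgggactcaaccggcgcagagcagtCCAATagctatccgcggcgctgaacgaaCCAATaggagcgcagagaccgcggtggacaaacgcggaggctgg
Mcm6: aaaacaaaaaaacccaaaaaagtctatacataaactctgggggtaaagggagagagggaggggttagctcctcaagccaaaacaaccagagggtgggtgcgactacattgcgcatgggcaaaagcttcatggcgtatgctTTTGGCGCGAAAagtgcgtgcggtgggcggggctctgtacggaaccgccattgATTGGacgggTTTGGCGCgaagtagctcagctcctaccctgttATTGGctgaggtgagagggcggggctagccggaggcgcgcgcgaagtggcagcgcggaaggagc
Rrm1: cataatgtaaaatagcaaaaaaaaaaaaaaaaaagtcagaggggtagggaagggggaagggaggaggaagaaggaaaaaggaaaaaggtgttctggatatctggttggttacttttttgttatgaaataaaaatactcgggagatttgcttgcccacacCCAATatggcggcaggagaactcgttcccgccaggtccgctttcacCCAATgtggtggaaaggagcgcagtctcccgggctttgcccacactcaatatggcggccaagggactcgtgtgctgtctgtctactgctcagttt

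The Ube2c promoter held 1 CHR match, with its first base 29 bases before the start, and 6 CCAAT matches. Top2a held 4 CHR and 6 CCAAT matches, and Cdk1 held 2 CHR, 3 CCAAT and 1 E2F match. Mcm5 held 3 CCAAT matches and 2 overlapping E2F matches, Mcm6 held 2 CCAAT and 3 E2F matches, and Rrm1 held 2 CCAAT matches and neither of the other motifs.

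Over the whole lists, promoters were found for 19 of the 24 mitotic genes and 13 of the 15 S-phase genes. Shares were counted by gene, and a gene with several promoters counted where any of them matched. CHR letters stood in 15 of 19 mitotic genes (78.9%), in 2 of 13 S-phase genes (15.4%) and in 21.5% of the 26742 genes of the promoter table. E2F letters stood in 1 of 19 mitotic genes (5.26%), in 6 of 13 S-phase genes (46.2%) and in 2.63% of all. CCAAT was in 17 of 19, in 8 of 13 and in 41.0% of all, and CHR with CCAAT in 15 of 19, in 2 of 13 and in 8.60% of all. The matched mitotic genes without CHR letters in this window were Birc5, Ccnb1, Cenpe and Nusap1. A match is a description of letters and not a test of binding.

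**Figure D1:**
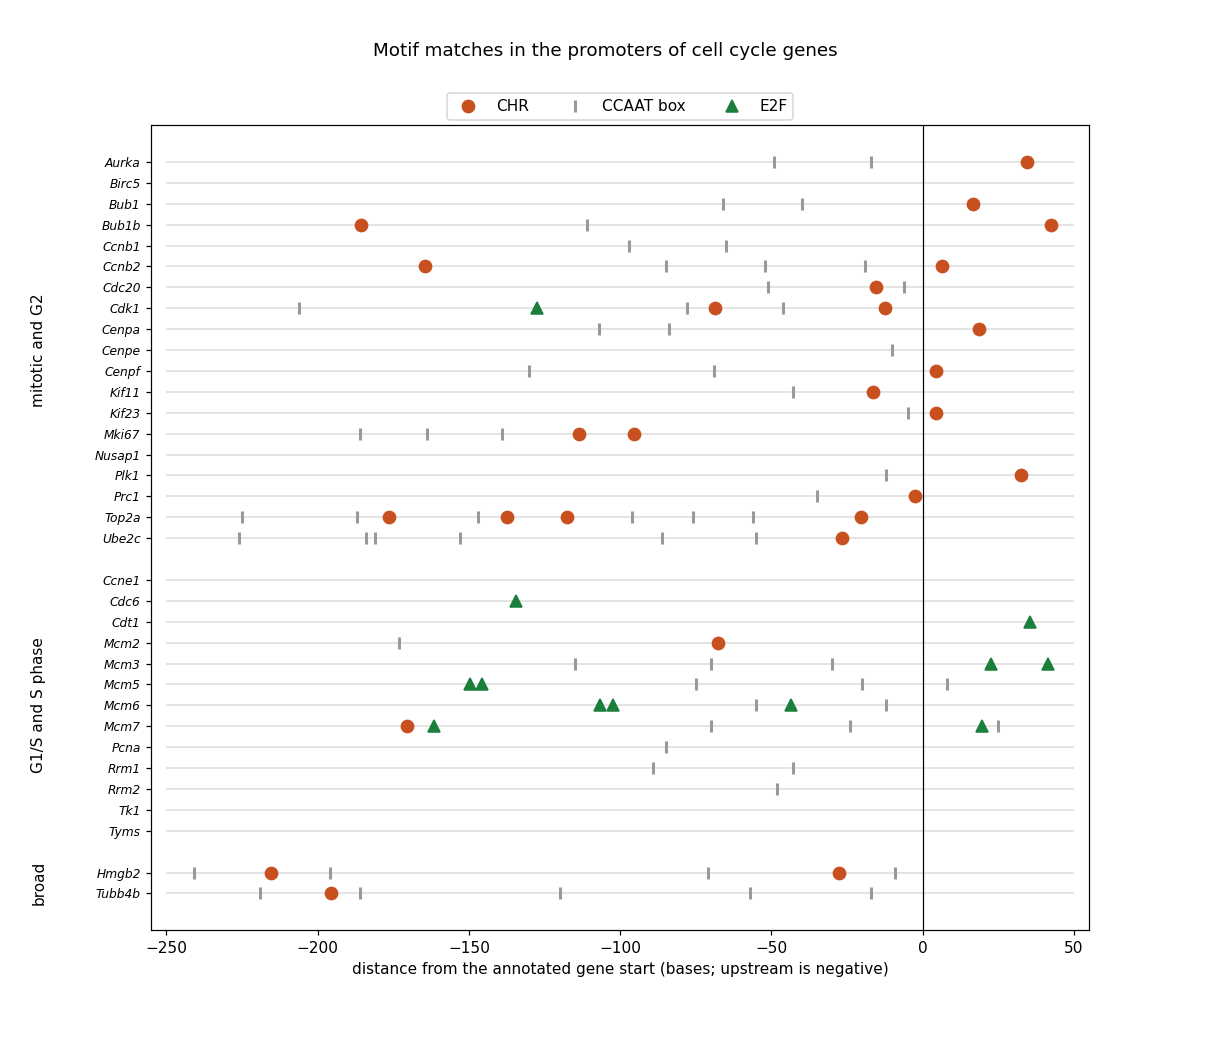
Positions of the CHR, CCAAT and E2F letters in the promoters of the matched genes, with distance from the gene's start in bases on the x axis and 1 gene per line. CHR marks lie in 15 of 19 mitotic promoters and E2F marks in 6 of 13 S-phase promoters.

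In the CD45-negative cells the mitotic genes were lower at 4 Gy, while the summed S-phase genes had a ratio whose interval includes 1. The 24 mitotic genes together had 136 CPM at 4 Gy and 235 CPM at 0 Gy, a ratio of 0.578 [0.544 to 0.614], where brackets hold the exact 95% interval. This interval and all others cover counting error only, not the spread between mice, and treat UMIs as independent although UMIs of 1 cell are not. All 24 had a ratio under 1, against 45.1% of all 18465 genes with at least 10 UMIs over both libraries. At least 1.5-fold lower were 16 of 24, against 8.97% of all genes. In the other direction 0 were at least 1.5-fold higher, against 10.8% of all genes. These counts were made on the ratio of CPM itself. With 5 CPM added to both levels, which shrinks the ratios of low genes, 5 of 24 were at least 1.5-fold lower (Top2a, Cdk1, Ube2c, Ccnb1 and Nusap1), against 0.969% of all genes. Median log2 ratios here and below are on that scale, and the median was -0.38 for the mitotic list and 0.02 for all genes. The 15 S-phase genes together had 212 CPM at 4 Gy and 208 CPM at 0 Gy, a ratio of 1.02 [0.964 to 1.07], with 0 members past 1.5-fold either way and a median log2 ratio of 0.02. With every cell thinned to 1000 UMIs, the mitotic genes at least 1.5-fold lower numbered 9 and the S-phase genes at least 1.5-fold higher 4. Thinning leaves fewer genes with at least 10 UMIs, and no share over all genes was taken in thinned cells. Counts of genes after thinning, here and below, are therefore not comparable with the unthinned counts.

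In the CD45-positive cells the same split was smaller. There the mitotic list had 224 CPM at 4 Gy and 297 CPM at 0 Gy, a ratio of 0.754 [0.729 to 0.780], and a median log2 ratio of -0.26. At least 1.5-fold lower were 12 of 24, against 6.55% of all 19018 genes. Again 0 were at least 1.5-fold higher, against 10.2% of all genes. A ratio under 1 was found for 22 of 24, against 44.7% of all genes. The S-phase list had 281 CPM at 4 Gy and 274 CPM at 0 Gy, a ratio of 1.03 [0.994 to 1.06], with 1 of 15 members at least 1.5-fold lower, Rrm2. The count of 12 depended on the settings. It was 2 when each cell's CPM was averaged with equal weight and 5 when cells were thinned to 1000 UMIs. With 5 CPM added it was 0, against 0.273% of all genes. In these sums over a sort, fewer dividing cells and less RNA per dividing cell cannot be told apart. The counts of cells below are made on UMIs of the same genes, so they do not separate the 2 either.

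**Figure D2:**
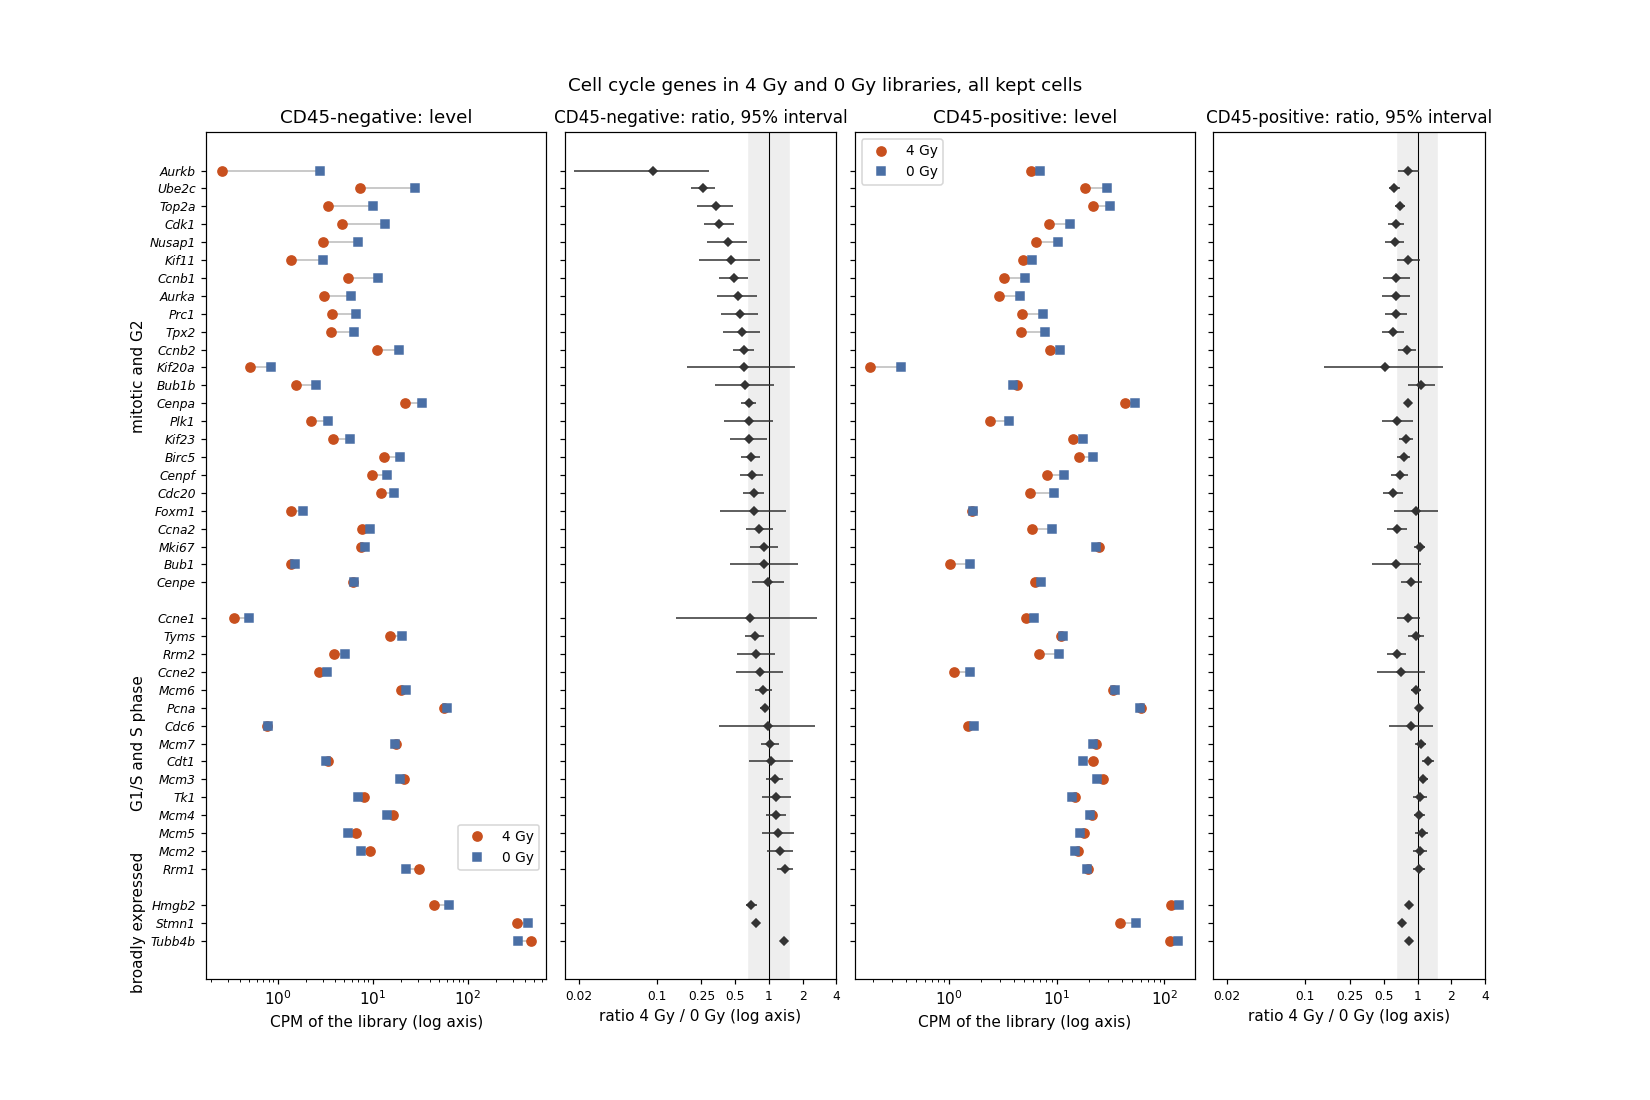
CPM of each of the 42 genes at 4 Gy and 0 Gy, and the ratio of 4 Gy over 0 Gy with its 95% counting interval, on log axes, in the CD45-negative and the CD45-positive libraries; the grey band is less than 1.5-fold. In the CD45-negative cells all 24 mitotic genes lie below 1, while the 15 S-phase genes lie on both sides of it.

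Cyclins and their kinase come first among the mitotic members. Cdk1, the kinase that starts mitosis, had 56 UMIs at 4 Gy and 186 UMIs at 0 Gy in the CD45-negative libraries. That is 4.80 CPM at 4 Gy and 13.3 CPM at 0 Gy, a ratio of 0.360 [0.262 to 0.488]. Its partner Ccnb1, cyclin B1, had 5.48 CPM at 4 Gy and 11.3 CPM at 0 Gy, a ratio of 0.485 [0.357 to 0.652]. Both ratios were below that of the summed list. Ccnb2, cyclin B2, had 11.1 CPM at 4 Gy and 18.7 CPM at 0 Gy, a ratio of 0.594 [0.478 to 0.736]. Ccna2, cyclin A2, which acts from S phase on, had 7.62 CPM at 4 Gy and 9.30 CPM at 0 Gy, and the interval of its ratio, 0.820 [0.619 to 1.08], includes 1. CD45-positive libraries held Cdk1 at 8.60 CPM at 4 Gy and 13.4 CPM at 0 Gy, a ratio of 0.642 [0.542 to 0.759]. Ccnb1 there had 3.29 CPM at 4 Gy and 5.10 CPM at 0 Gy, a ratio of 0.646 [0.490 to 0.850]. Ccnb2 had 8.69 CPM at 4 Gy and 10.8 CPM at 0 Gy, a ratio of 0.805 [0.674 to 0.961]. Ccna2, unlike in the negative sort, had an interval that leaves out 1, with 5.96 CPM at 4 Gy and 9.02 CPM at 0 Gy and a ratio of 0.661 [0.539 to 0.810]. Foxm1, a transcription factor of the mitotic wave, had 16 UMIs at 4 Gy and 26 UMIs at 0 Gy in the negative sort, and 1.63 CPM at 4 Gy and 1.69 CPM at 0 Gy in the positive sort, a ratio of 0.968 [0.623 to 1.52].

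The anaphase-promoting complex, the ubiquitin ligase that ends mitosis, is represented by its E2 enzyme Ube2c and its activator Cdc20. Ube2c had 85 UMIs at 4 Gy and 391 UMIs at 0 Gy in the CD45-negative libraries, or 7.28 CPM at 4 Gy and 28 CPM at 0 Gy. Its ratio of 0.260 [0.203 to 0.330] was the lowest among members with at least 50 UMIs in that sort. Ube2c in the positive sort had 18.4 CPM at 4 Gy and 29.7 CPM at 0 Gy, a ratio of 0.621 [0.554 to 0.695]. Ube2c was thus lower at 4 Gy in both sorts, and further below 0 Gy in the negative one; the difference between sorts was not tested. Cdc20 had 12.2 CPM at 4 Gy and 16.7 CPM at 0 Gy in the negative sort, a ratio of 0.735 [0.592 to 0.909]. Cdc20 in the positive sort had 5.68 CPM at 4 Gy and 9.39 CPM at 0 Gy, a ratio of 0.605 [0.493 to 0.742].

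Of the mitotic kinases and the checkpoint, Aurkb, the kinase of the chromosomal passenger complex, had 3 UMIs at 4 Gy and 39 UMIs at 0 Gy in the CD45-negative libraries, a ratio of 0.0921 [0.0182 to 0.290]. Birc5, survivin, a member of the same complex, had 13.1 CPM at 4 Gy and 19.1 CPM at 0 Gy there, a ratio of 0.686 [0.559 to 0.840]. Aurkb in the positive sort had 5.77 CPM at 4 Gy and 6.97 CPM at 0 Gy, a ratio of 0.828 [0.665 to 1.03]. Birc5 in the positive sort had 16.2 CPM at 4 Gy and 21.5 CPM at 0 Gy, a ratio of 0.751 [0.662 to 0.853]. Both genes of the complex were thus lower at 4 Gy in both sorts, Aurkb in the positive sort with an interval that includes 1. Aurka, the kinase of spindle poles, had 3.08 CPM at 4 Gy and 5.87 CPM at 0 Gy in the negative sort, a ratio of 0.526 [0.345 to 0.787]. Aurka in the positive sort had 2.92 CPM at 4 Gy and 4.56 CPM at 0 Gy, a ratio of 0.640 [0.478 to 0.858]. Both Aurka intervals leave out 1. Plk1, polo-like kinase, had 2.23 CPM at 4 Gy and 3.36 CPM at 0 Gy in the negative sort, a ratio of 0.662 [0.394 to 1.09]. Plk1 in the positive sort had 2.42 CPM at 4 Gy and 3.64 CPM at 0 Gy, a ratio of 0.663 [0.478 to 0.918]. The spindle checkpoint kinase genes had few UMIs, and their intervals include 1 in both sorts. Bub1b had 1.54 CPM at 4 Gy and 2.50 CPM at 0 Gy in the negative sort, a ratio of 0.616 [0.328 to 1.12]. Bub1b in the positive sort had 4.27 CPM at 4 Gy and 3.96 CPM at 0 Gy, a ratio of 1.08 [0.816 to 1.43]. Bub1 had 16 UMIs at 4 Gy and 21 UMIs at 0 Gy in the negative sort, and 1.04 CPM at 4 Gy and 1.59 CPM at 0 Gy in the positive sort, a ratio of 0.649 [0.391 to 1.08].

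Genes of chromosomes and centromeres were not alike. Top2a, topoisomerase II alpha, which untangles sister chromosomes, had 39 UMIs at 4 Gy and 140 UMIs at 0 Gy in the CD45-negative libraries. That is 3.34 CPM at 4 Gy and 10.01 CPM at 0 Gy, a ratio of 0.333 [0.228 to 0.479]. In the positive sort it had 21.6 CPM at 4 Gy and 31.1 CPM at 0 Gy, a ratio of 0.697 [0.626 to 0.776]. Mki67, the Ki-67 protein that coats mitotic chromosomes and is the usual marker of dividing cells, had 7.54 CPM at 4 Gy and 8.30 CPM at 0 Gy in the negative sort and 24.6 CPM at 4 Gy and 23.4 CPM at 0 Gy in the positive sort. Its ratios of 0.908 [0.680 to 1.21] in the negative and 1.05 [0.940 to 1.18] in the positive sort have intervals that include 1, whereas those of Top2a leave it out. Cenpa, the histone that marks the centromere, had the most UMIs of the mitotic list. Its level was 21.6 CPM at 4 Gy and 32.8 CPM at 0 Gy in the negative sort, a ratio of 0.657 [0.561 to 0.768]. Cenpa in the positive sort had 43.4 CPM at 4 Gy and 52.8 CPM at 0 Gy, a ratio of 0.822 [0.760 to 0.890]. Cenpa was thus lower at 4 Gy in both sorts, though its ratio in the negative sort was 1.06 after thinning. Cenpe, a centromere motor, had 6.25 CPM at 4 Gy and 6.37 CPM at 0 Gy in the negative sort, a ratio of 0.982 [0.711 to 1.35]. Cenpe in the positive sort had 6.27 CPM at 4 Gy and 7.15 CPM at 0 Gy, a ratio of 0.877 [0.708 to 1.09]. Cenpf, a kinetochore protein, had 9.85 CPM at 4 Gy and 14 CPM at 0 Gy in the negative sort, a ratio of 0.702 [0.553 to 0.889]. Cenpf in the positive sort had 8.16 CPM at 4 Gy and 11.7 CPM at 0 Gy, a ratio of 0.697 [0.584 to 0.831]. In the positive sort the direction of Cenpf depended on the settings: its ratio was 1.44 with cells weighted equally and 1.10 [0.614 to 2.03] after thinning.

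Spindle genes were lower in both sorts at 4 Gy, Kif11 in the positive sort with an interval that includes 1. Those of the central spindle and its motors in the CD45-negative libraries, in CPM at 4 Gy against 0 Gy, were Prc1 3.68 against 6.65 (ratio 0.554 [0.376 to 0.803]), Kif23 3.85 against 5.79 (ratio 0.665 [0.451 to 0.969]) and Kif11 1.37 against 3.0 (ratio 0.456 [0.239 to 0.828]). Prc1 bundles microtubules between the separating chromosomes, Kif23 is a motor of cytokinesis and Kif11 pushes the poles apart. The microtubule binders there were Nusap1 3.0 against 7.01 (ratio 0.428 [0.282 to 0.635]) and Tpx2 3.60 against 6.29 (ratio 0.571 [0.386 to 0.834]). The CD45-positive values, in CPM at 4 Gy against 0 Gy, were Prc1 4.83 against 7.52 (ratio 0.643 [0.513 to 0.805]), Kif23 14.1 against 17.8 (ratio 0.793 [0.691 to 0.910]), Kif11 4.89 against 5.92 (ratio 0.826 [0.651 to 1.05]), Nusap1 6.40 against 10.3 (ratio 0.624 [0.514 to 0.758]) and Tpx2 4.71 against 7.79 (ratio 0.604 [0.482 to 0.757]). Kif20a, another motor of cytokinesis, had 6 UMIs at 4 Gy and 12 UMIs at 0 Gy in the negative sort, and 6 UMIs at 4 Gy and 8 UMIs at 0 Gy in the positive sort, too few to order. After thinning to 1000 UMIs few UMIs of single genes were left, and the ratios of Cenpa (1.06), Prc1 (2.62) and Tpx2 (1.12) in the negative sort and of Prc1 (1.47) in the positive sort were above 1.

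Among the S-phase members, those that make nucleotides did not move together. Rrm1, the large subunit of ribonucleotide reductase, had 359 UMIs at 4 Gy and 309 UMIs at 0 Gy in the CD45-negative libraries, or 30.7 CPM at 4 Gy and 22.1 CPM at 0 Gy. Its ratio of 1.39 [1.19 to 1.62] was the highest of the 15. Its partner Rrm2, the small subunit, had 3.94 CPM at 4 Gy and 5.15 CPM at 0 Gy there, a ratio of 0.765 [0.516 to 1.12]. Tyms, thymidylate synthase, had 15.2 CPM at 4 Gy and 20.2 CPM at 0 Gy, a ratio of 0.749 [0.617 to 0.907]. Tk1, thymidine kinase, had 8.05 CPM at 4 Gy and 6.94 CPM at 0 Gy, a ratio of 1.16 [0.864 to 1.56]. So Rrm1 was higher and Tyms lower at 4 Gy with intervals that leave out 1, and the other two had intervals that include it. Rrm2 in the positive sort had 6.84 CPM at 4 Gy and 10.5 CPM at 0 Gy, a ratio of 0.653 [0.540 to 0.789]. Rrm1 there had 19.5 CPM at 4 Gy and 19 CPM at 0 Gy (1.03 [0.906 to 1.17]). Tyms had 11 CPM at 4 Gy and 11.5 CPM at 0 Gy (0.962 [0.816 to 1.14]). Tk1 had 14.7 CPM at 4 Gy and 13.9 CPM at 0 Gy (1.06 [0.914 to 1.23]).

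The subunits of the MCM helicase, which is loaded on replication origins, had ratios near 1. In the CD45-negative libraries, in CPM at 4 Gy against 0 Gy, the 6 subunits were Mcm2 9.42 against 7.51, Mcm3 21.5 against 19.1, Mcm4 16.4 against 14.1, Mcm5 6.59 against 5.51, Mcm6 19.9 against 22.2 and Mcm7 17.4 against 17. Their ratios ran between 0.893 [0.750 to 1.06] for Mcm6 and 1.25 [0.951 to 1.65] for Mcm2, and each interval includes 1, those of Mcm3 (1.13 [0.943 to 1.34]), Mcm4 (1.16 [0.946 to 1.42]), Mcm5 (1.20 [0.861 to 1.66]) and Mcm7 (1.02 [0.843 to 1.24]) among them. In the positive sort, in the same order of doses, they were Mcm2 15.7 against 14.8, Mcm3 26.8 against 23.9, Mcm4 21.3 against 20.5, Mcm5 18.1 against 16.7, Mcm6 33.7 against 34.7 and Mcm7 23.4 against 22 CPM. The ratios there ran between 0.971 for Mcm6 and 1.12 [1.0 to 1.25] for Mcm3. Cdt1, which loads the helicase with Cdc6, had 3.34 CPM at 4 Gy and 3.22 CPM at 0 Gy in the negative sort, a ratio of 1.04 [0.658 to 1.63]. Cdt1 in the positive sort had 21.9 CPM at 4 Gy and 17.7 CPM at 0 Gy, a ratio of 1.24 [1.09 to 1.40], the highest of the 15 there. Cdc6 had 9 UMIs at 4 Gy and 11 UMIs at 0 Gy in the negative sort, and 1.51 CPM at 4 Gy and 1.73 CPM at 0 Gy in the positive sort, a ratio of 0.870 [0.556 to 1.37]. Pcna, the sliding clamp of DNA polymerase and also a gene of DNA repair, had 55.8 CPM at 4 Gy and 60.6 CPM at 0 Gy in the negative sort, a ratio of 0.922 [0.831 to 1.02]. Pcna in the positive sort had 60.5 CPM at 4 Gy and 59.2 CPM at 0 Gy, a ratio of 1.02 [0.951 to 1.10]. Both Pcna intervals include 1. Of the cyclins E, which drive the entry into S phase, Ccne2 had 2.74 CPM at 4 Gy and 3.29 CPM at 0 Gy in the negative sort, a ratio of 0.833 [0.513 to 1.34]. Ccne2 in the positive sort had 1.13 CPM at 4 Gy and 1.59 CPM at 0 Gy, a ratio of 0.708 [0.432 to 1.16]. Ccne1 had 4 UMIs at 4 Gy and 7 UMIs at 0 Gy in the negative sort, and 5.18 CPM at 4 Gy and 6.24 CPM at 0 Gy in the positive sort, a ratio of 0.829 [0.657 to 1.05].

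The 3 broadly used genes differed from each other. Stmn1, stathmin, which takes microtubules apart, had 332 CPM at 4 Gy and 433 CPM at 0 Gy in the CD45-negative libraries, a ratio of 0.767 [0.737 to 0.799]. Stmn1 in the positive sort had 39.1 CPM at 4 Gy and 54.3 CPM at 0 Gy, a ratio of 0.720 [0.664 to 0.780]. Hmgb2, a chromatin protein, had 44.1 CPM at 4 Gy and 63.2 CPM at 0 Gy in the negative sort, a ratio of 0.698 [0.625 to 0.779]. Hmgb2 in the positive sort had 115 CPM at 4 Gy and 137 CPM at 0 Gy, a ratio of 0.840 [0.800 to 0.882]. Tubb4b, a beta-tubulin, differed in direction between the sorts. It had 459 CPM at 4 Gy and 336 CPM at 0 Gy in the negative sort, a ratio of 1.37 [1.31 to 1.42]. Tubb4b in the positive sort had 112 CPM at 4 Gy and 134 CPM at 0 Gy, a ratio of 0.837 [0.797 to 0.879].

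Other genes of the cell cycle, listed as 35 further mitotic and 30 further S-phase genes, were counted in the same way. In the CD45-negative libraries 11 of 35 further mitotic genes were at least 1.5-fold lower, against 8.97% of all genes, and 0 higher, with a summed ratio of 0.847 [0.813 to 0.883] and a median log2 ratio of -0.15. That sum leans on 1 gene, Pttg1, named after its values were seen. Pttg1 had 1680 of the list's 3883 UMIs at 4 Gy and 2105 of 5486 at 0 Gy, a ratio of 0.955 [0.896 to 1.02]. Of the further S-phase genes 6 of the 27 measured were at least 1.5-fold lower, with a summed ratio of 0.909 [0.859 to 0.963]. In the CD45-positive libraries 6 of 35 further mitotic genes and 1 of 30 further S-phase genes were at least 1.5-fold lower, against 6.55% of all genes, with summed ratios of 0.970 [0.946 to 0.995] and 0.961 [0.931 to 0.993]. The mitotic ratio there was 1.04 when cells were weighted equally.

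The mitotic UMIs sat in few cells. A mitotic carrier is defined here as a cell with UMIs of at least 3 different genes of the 24, and an S-phase carrier likewise over the 15. In the CD45-negative libraries mitotic carriers were 31 of 4164 cells at 4 Gy (0.744%) and 79 of 5693 cells at 0 Gy (1.39%), a ratio of shares of 0.536 [0.342 to 0.822]. With each cell thinned to 1000 UMIs they were 15 of 3914 cells at 4 Gy (0.383%) and 37 of 5129 cells at 0 Gy (0.721%), a ratio of 0.531 [0.271 to 0.992]. The share was thus lower at 4 Gy with and without thinning. Among CD45-positive cells they were 160 of 9000 cells at 4 Gy (1.78%) and 104 of 5180 cells at 0 Gy (2.01%), a ratio of 0.885 [0.687 to 1.14], and after thinning the ratio was 0.751 [0.498 to 1.14]. Both of these intervals include 1.

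S-phase carriers in the CD45-negative libraries were 95 of 4164 cells at 4 Gy (2.28%) and 106 of 5693 cells at 0 Gy (1.86%), a ratio of 1.23 [0.919 to 1.63]. Among CD45-positive cells they were 495 of 9000 cells at 4 Gy (5.50%) and 338 of 5180 cells at 0 Gy (6.53%), a ratio of 0.843 [0.733 to 0.971]. Neither direction held under every definition: at 5 genes per carrier the negative sort had a ratio of 0.854, and after thinning to 2000 UMIs the ratios were 0.909 in the negative and 1.12 in the positive sort. Cells that carried both lists numbered 18 at 4 Gy and 45 at 0 Gy in the negative sort, and 102 at 4 Gy and 72 at 0 Gy in the positive sort.

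These few cells held most of the mitotic UMIs. In the CD45-negative libraries carriers held 79.1% of the mitotic UMIs at 4 Gy and 88.1% at 0 Gy, but 3.75% of all UMIs at 4 Gy and 6.71% at 0 Gy. In the CD45-positive libraries they held 69.5% of the mitotic UMIs at 4 Gy and 74.9% at 0 Gy, with 6.18% of all UMIs at 4 Gy and 6.39% at 0 Gy. Of the S-phase UMIs they held 8.24% at 4 Gy and 18.5% at 0 Gy in the negative sort, and 24.7% at 4 Gy and 27.6% at 0 Gy in the positive sort. Carriers were deep cells: their median was 13605 UMIs at 4 Gy and 7645 at 0 Gy in the negative sort, against 2056 at 4 Gy and 1870 at 0 Gy in the other cells. In the positive sort the carriers' median was 12233 UMIs at 4 Gy and 12230.5 at 0 Gy, against 2470 at 4 Gy and 2993 at 0 Gy in the other cells. Doublet removal took out 3 of 34 carriers at 4 Gy and 1 of 80 at 0 Gy in the negative sort, and 25 of 185 at 4 Gy and 9 of 113 at 0 Gy in the positive sort. The cell with the most mitotic UMIs held 14.5% of them at 4 Gy and 7.96% at 0 Gy in the negative sort. In the positive sort it held 3.12% at 4 Gy and 4.98% at 0 Gy.

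**Figure D3:**
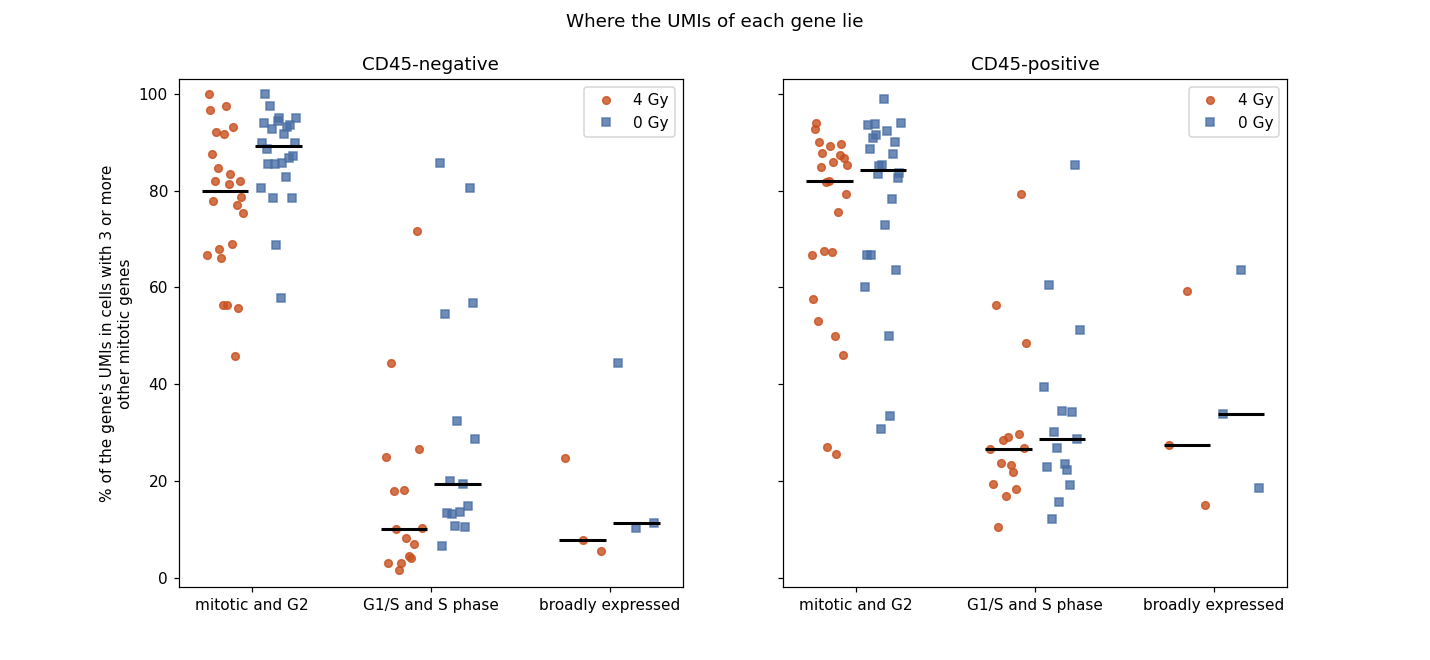
Share of each gene's UMIs, in percent, that lay in mitotic carriers, with the gene's own UMIs left out of the definition, in each of the 4 libraries; each point is a gene and lines are medians. The mitotic genes have medians between 79.9% and 89.2% and the S-phase genes between 10.0% and 28.8%.

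Because the mitotic genes themselves define the carriers, the level outside them is given as a description. In the CD45-negative libraries it was 29.5 CPM at 4 Gy and 30.1 CPM at 0 Gy, a ratio of 0.980 [0.844 to 1.14]. The S-phase genes in the same cells had 202 CPM at 4 Gy and 182 CPM at 0 Gy, a ratio of 1.11 [1.05 to 1.18]. In the CD45-positive libraries the cells outside carriers had 72.9 CPM at 4 Gy and 79.6 CPM at 0 Gy for the mitotic list, a ratio of 0.916 [0.859 to 0.977], and a ratio of 1.07 [1.03 to 1.11] for the S-phase list. Cdkn1a, the p53 target p21 that inhibits cyclin-dependent kinases, had 77.7 CPM at 4 Gy and 91.7 CPM at 0 Gy in the CD45-negative carriers. In the other CD45-negative cells it had 2230 CPM at 4 Gy and 388 CPM at 0 Gy. Carriers and other cells differ in their mix of cell classes. Endothelial cells had Cdkn1a at 2611 CPM at 4 Gy and 457 CPM at 0 Gy. Tumour epithelial cells, with 12 of the 31 carriers at 4 Gy and 25 of the 79 at 0 Gy, had 33.4 CPM at 4 Gy and 24.5 CPM at 0 Gy. In the positive sort Cdkn1a had 107 CPM at 4 Gy and 47.7 CPM at 0 Gy in the carriers, and 177 CPM at 4 Gy and 72.5 CPM at 0 Gy in the other cells. Cdkn1a was thus higher at 4 Gy outside the carriers in the negative sort, and both inside and outside them in the positive sort; its part in the mitotic genes' levels was not tested.

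Shares of carriers by class have a floor. Neutrophils and nonclassical monocytes are blood cells that no longer divide. Among neutrophils of the CD45-positive libraries mitotic carriers were 6 of 828 cells at 4 Gy (0.725%) and 2 of 293 cells at 0 Gy (0.683%), at median depths of 1832 UMIs at 4 Gy and 2018 at 0 Gy. Nonclassical monocytes had 0 of 197 at 4 Gy and 0 of 150 at 0 Gy, which allows shares of up to 1.52% at 4 Gy and 2.0% at 0 Gy, at median depths of 2423 UMIs at 4 Gy and 2856 at 0 Gy. For the S-phase list neutrophils had 4 of 828 cells at 4 Gy (0.483%) and 4 of 293 cells at 0 Gy (1.37%). The neutrophil carriers held 74 of the class's 285 mitotic UMIs at 4 Gy, where 1 cell held 36, and 8 of 134 at 0 Gy. These levels are a rough guide, taken from the CD45-positive sort and used for both sorts. No difference is read from shares at or below them. Class sums and shares also leave out carriers that fell in no class. In the CD45-positive libraries these were 68 of 160 carriers at 4 Gy and 40 of 104 at 0 Gy. In the classes described next, parentheses after a pair of levels hold the ratio with its interval.

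Tumour epithelial cells, gated in the CD45-negative libraries, often carried the mitotic genes. Carriers were 12 of 37 cells at 4 Gy (32.4%) and 25 of 74 cells at 0 Gy (33.8%), a ratio of shares of 0.960 [0.439 to 1.98]. S-phase carriers were 13 of 37 cells at 4 Gy (35.1%) and 13 of 74 cells at 0 Gy (17.6%). The median cell of the class had 3465 UMIs at 4 Gy and 1584 at 0 Gy, and after thinning mitotic carriers were 5 of 26 cells at 4 Gy (19.2%) and 14 of 50 cells at 0 Gy (28%), a ratio of 0.687 [0.194 to 2.02]. With 37 cells at 4 Gy the class is below the 50 asked of the others, and no share over all genes is set beside it. Its mitotic list had 1297 CPM at 4 Gy and 1715 CPM at 0 Gy, a ratio of 0.756 [0.647 to 0.883], and the S-phase list had 658 CPM at 4 Gy and 633 CPM at 0 Gy, a ratio of 1.04 [0.820 to 1.32]. Within the class, genes lay on both sides of 1. In CPM at 4 Gy against 0 Gy, Ube2c had 138 against 323 (ratio 0.429 [0.270 to 0.663]). Cdk1 had 66.7 against 147 (ratio 0.454 [0.226 to 0.863]). Hmgb2 had 181 against 400.2 (ratio 0.453 [0.303 to 0.665]). Cenpa had 181 against 106 (ratio 1.71 [1.01 to 2.93], and 0.937 with cells weighted equally) and Ccna2 176 against 106 (ratio 1.66 [0.979 to 2.86]). The remaining genes named in this class were Tubb4b 353 against 384, Stmn1 238 against 388, Birc5 133 against 179.7 and Ccnb2 124 against 179.7, with ratios of 0.919, 0.614, 0.743 and 0.690. Fibroblasts of this sort, 23 cells at 4 Gy and 40 at 0 Gy, had a mitotic ratio of 1.65 [1.36 to 2.01]. Among fibroblasts 1 cell held 97.3% of the mitotic UMIs at 4 Gy and 94.9% at 0 Gy.

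The gate left out many carriers of this sort: 15 of the 31 carriers at 4 Gy and 40 of the 79 at 0 Gy fell in no class. A split whose genes were chosen after their values were seen used Cdkn2a, which restrains the cell cycle, and Xist, which is expressed in cells of female mice; a shallow cell without an Xist UMI may still express it. Cells with Cdkn2a and without Xist held 13 carriers of 41 cells at 4 Gy (31.7%) and 27 of 99 at 0 Gy (27.3%). Cells with Xist held 10 of 1485 at 4 Gy (0.673%) and 27 of 1756 at 0 Gy (1.54%). The carriers had markers of several lineages. The epithelial keratin gene Krt8 was found in 24 of the 31 carriers at 4 Gy and 60 of the 79 at 0 Gy, and Krt19 in 21 at 4 Gy and 58 at 0 Gy, but the epithelial adhesion gene Epcam in 0 at 4 Gy and 4 at 0 Gy. Msln, a mesothelial gene, was found in 13 at 4 Gy and 27 at 0 Gy, the collagen gene Col1a1 in 10 at 4 Gy and 19 at 0 Gy, and Cldn5, an endothelial junction gene, in 5 at 4 Gy and 22 at 0 Gy. Whether the lower mitotic sum at 4 Gy follows from fewer cells of the first kind was not tested.

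Endothelial cells, the most numerous CD45-negative class, held few mitotic carriers at either dose. Mitotic carriers were 2 of 3663 cells at 4 Gy (0.0546%) and 9 of 4895 cells at 0 Gy (0.184%), below the neutrophils' share, so no difference in shares is read. These carriers held 79 of 307 mitotic UMIs at 4 Gy and 411 of 668 at 0 Gy, and 1 of them at 4 Gy and 5 at 0 Gy carried 8 or more mitotic genes. The mitotic list had 34.5 CPM at 4 Gy and 66.8 CPM at 0 Gy, a ratio of 0.517 [0.450 to 0.593], with 13 of the 20 measured genes at least 1.5-fold lower against 7.55% of all genes, and 0 higher against 10.2%. This depended on the settings: the summed ratio was 0.702 with cells weighted equally, 0.610 with a looser gate and 0.850 after thinning to 1000 UMIs. The genes lower numbered 3 after thinning and 4 with at least 50 UMIs per gene, and both settings leave fewer genes measured. Without the 2 carriers at 4 Gy and the 9 at 0 Gy the mitotic level was 25.7 CPM at 4 Gy and 25.8 CPM at 0 Gy, a ratio of 0.996 [0.829 to 1.19]. Birc5 in these cells had 0.338 CPM at 4 Gy and 3.40 CPM at 0 Gy (0.0993 [0.0195 to 0.316]). Cdk1 had 0.563 CPM at 4 Gy and 3.30 CPM at 0 Gy (0.170 [0.0520 to 0.439]). Ube2c had 1.24 CPM at 4 Gy and 6.80 CPM at 0 Gy (0.182 [0.0868 to 0.347]). These 3 intervals leave out 1 but rest on 3 to 68 UMIs per library. Top2a had 0.900 CPM at 4 Gy and 4.30 CPM at 0 Gy (0.209 [0.0850 to 0.450]). Cenpf had 1.69 CPM at 4 Gy and 4.10 CPM at 0 Gy (0.412 [0.212 to 0.760]). Cdc20 had 4.39 CPM at 4 Gy and 6.70 CPM at 0 Gy (0.655 [0.430 to 0.986]). Shares of cells with a UMI did not all fall with these levels. Any mitotic UMI was found in 5.81% of endothelial cells at 4 Gy and 5.17% at 0 Gy. Ube2c was found in 11 cells at 4 Gy (0.3003%) and 15 at 0 Gy (0.3064%). Cdc20 was in 39 of 3663 cells at 4 Gy and 49 of 4895 at 0 Gy. Birc5, Cdk1, Top2a and Cenpf were in smaller shares at 4 Gy, Cdk1 in 0.137% at 4 Gy and 0.245% at 0 Gy.

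The S-phase list of endothelial cells went the other way, with 210.3 CPM at 4 Gy and 189 CPM at 0 Gy, a ratio of 1.11 [1.04 to 1.19] and of 1.13 [1.06 to 1.20] without the mitotic carriers. Of the 13 measured genes 2 were at least 1.5-fold higher, against 10.2% of all genes, and 1 lower, against 7.55%, so both counts are near those of all genes. Higher were Rrm1 and Tk1, and lower was Rrm2 on 4 UMIs at 4 Gy and 13 at 0 Gy, named after its values were seen. Rrm1 had 31.6 CPM at 4 Gy and 19.9 CPM at 0 Gy (1.59 [1.32 to 1.92]). Tk1 had 5.96 CPM at 4 Gy and 2.40 CPM at 0 Gy (2.48 [1.51 to 4.21]). Mcm3 had 24.6 CPM at 4 Gy and 19.9 CPM at 0 Gy (1.24 [1.02 to 1.51]), and Pcna (58.1 against 61 CPM, ratio 0.952), Mcm6 (19.1 against 21.5 CPM, 0.890) and Mcm7 (17.6 against 15.7 CPM, 1.12) had intervals that include 1. S-phase carriers were 46 of 3663 cells at 4 Gy (1.26%) and 29 of 4895 cells at 0 Gy (0.592%), a ratio of 2.12 [1.30 to 3.50], both within the range of the neutrophils' 2 shares. At 5 different genes the ratio was 0.891, and over all settings it ran between 0.891 and 2.32. After thinning to 1000 UMIs carriers numbered 7 at 4 Gy and 4 at 0 Gy, out of fewer cells at 4 Gy than at 0 Gy. Of the broad genes, Tubb4b had 399 CPM at 4 Gy and 305 CPM at 0 Gy (1.31 [1.25 to 1.38]). Stmn1 had 363 CPM at 4 Gy and 493 CPM at 0 Gy (0.736 [0.704 to 0.770]). Hmgb2 had 35.2 CPM at 4 Gy and 45.5 CPM at 0 Gy (0.774 [0.668 to 0.896]). The median endothelial cell had 2035 UMIs at 4 Gy and 1858 at 0 Gy, in the same direction as the S-phase carriers. Thinned cells have equal depth but held few carriers, and the part of depth was not tested.

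In T cells the mitotic genes were lower at 4 Gy. The mitotic list had 295 CPM at 4 Gy and 501 CPM at 0 Gy, a ratio of 0.589 [0.556 to 0.624] and a median log2 ratio of -0.50. At least 1.5-fold lower were 16 of the 23 measured genes, against 9.56% of all genes, and 8 after thinning. Top2a had 30.02 CPM at 4 Gy and 58.9 CPM at 0 Gy (0.510 [0.427 to 0.608]). Ube2c had 26.7 CPM at 4 Gy and 54.1 CPM at 0 Gy (0.494 [0.410 to 0.594]). Cdk1 had 11.8 CPM at 4 Gy and 23.4 CPM at 0 Gy (0.504 [0.379 to 0.668]). Mki67 had 31.2 CPM at 4 Gy and 47.8 CPM at 0 Gy (0.652 [0.543 to 0.783]). Each of these 4 was lower at 4 Gy with an interval that leaves out 1. The other mitotic genes named in this class, in CPM at 4 Gy against 0 Gy, were Prc1 6.82 against 15.2 (ratio 0.450), Tpx2 6.55 against 13.8 (0.476), Ccna2 8.78 against 16.7 (0.525), Plk1 4.06 against 7.68 (0.529), Cenpf 14.3 against 26.6 (0.538), Ccnb1 4.46 against 8.07 (0.552), Nusap1 9.18 against 16.5 (0.555), Cdc20 8.13 against 14.6 (0.558), Birc5 21.6 against 37.4 (0.578), Cenpe 8.65 against 14.4 (0.602) and Cenpa 52.4 against 74.6 (0.703). After thinning, the ratios of Cdc20 (1.35) and Cenpf (1.08) were above 1.

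The S-phase list of T cells had 358 CPM at 4 Gy and 385 CPM at 0 Gy, a ratio of 0.930 [0.877 to 0.986]. At least 1.5-fold lower were 5 of 15 genes, against 9.56% of all genes. After thinning the ratio was 1.08 with 2 genes lower and 2 higher, so its direction depends on this choice. Rrm2 had 10.4 CPM at 4 Gy and 18.1 CPM at 0 Gy (0.572 [0.418 to 0.781]). Ccne1 had 6.69 CPM at 4 Gy and 10.8 CPM at 0 Gy (0.617 [0.413 to 0.921]). Tyms had 13.2 CPM at 4 Gy and 20.3 CPM at 0 Gy (0.653 [0.491 to 0.868]). The intervals of these 3 leave out 1, and those of the next 2 include it. Pcna had 69.6 CPM at 4 Gy and 70.5 CPM at 0 Gy (0.988 [0.862 to 1.13]). Mcm6 had 57.3 CPM at 4 Gy and 62.2 CPM at 0 Gy (0.921 [0.795 to 1.07]). All 3 broad genes were lower. Tubb4b had 87.6 CPM at 4 Gy and 141 CPM at 0 Gy (0.623 [0.560 to 0.693]). Hmgb2 had 122 CPM at 4 Gy and 183 CPM at 0 Gy (0.664 [0.606 to 0.729]). Stmn1 had 60.4 CPM at 4 Gy and 84.7 CPM at 0 Gy (0.714 [0.625 to 0.816]). Mitotic carriers among T cells were 46 of 2101 cells at 4 Gy (2.19%) and 35 of 1133 cells at 0 Gy (3.09%), a ratio of 0.709 [0.447 to 1.13]. After thinning they were 16 of 2077 cells at 4 Gy (0.770%) and 19 of 1122 cells at 0 Gy (1.69%), a ratio of 0.455 [0.219 to 0.934]. S-phase carriers were 144 of 2101 cells at 4 Gy (6.85%) and 113 of 1133 cells at 0 Gy (9.97%), a ratio of 0.687 [0.533 to 0.887]. The median T cell had 3209 UMIs at 4 Gy and 4017 at 0 Gy. Outside carriers the mitotic ratio was 0.891 [0.779 to 1.02].

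Within T cells, those with UMIs of CD8 genes had 289 CPM at 4 Gy and 387 CPM at 0 Gy for the mitotic list, a ratio of 0.746 [0.681 to 0.818], which was 1.01 after thinning. Their carriers were 21 of 844 cells at 4 Gy (2.49%) and 10 of 419 cells at 0 Gy (2.39%). Cells with Cd4 UMIs had 335 CPM at 4 Gy and 580.1 CPM at 0 Gy, a ratio of 0.578 [0.506 to 0.660]. Carriers were 7 of 366 cells at 4 Gy (1.91%) and 9 of 233 cells at 0 Gy (3.86%). In these cells 1 cell held 56.3% of the mitotic UMIs at 4 Gy and 27.7% at 0 Gy, and without those cells the ratio was 0.345. Regulatory T cells had carriers in 6 of 74 cells at 4 Gy (8.11%) and 2 of 38 cells at 0 Gy (5.26%). Gamma-delta T cells had them in 2 of 110 cells at 4 Gy (1.82%) and 2 of 61 cells at 0 Gy (3.28%), and there the mitotic ratio was 1.25 [0.978 to 1.62] and the S-phase ratio 0.558 [0.433 to 0.718]. In these cells 1 cell held 85.0% of the mitotic UMIs at 4 Gy and 54.1% at 0 Gy, and without those cells the mitotic ratio was 0.397 and the S-phase ratio 0.823.

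B cells, the largest CD45-positive class, went the other way under the strict gate. Here the mitotic list had 136 CPM at 4 Gy and 113 CPM at 0 Gy, a ratio of 1.20 [1.09 to 1.31], with 6 of 21 measured genes at least 1.5-fold higher against 10.6% of all genes. That count was 2 after thinning, with the looser gate or with at least 50 UMIs per gene, and 1 with 5 CPM added. No share over all genes is given for B cells under these settings. The S-phase list had 250.4 CPM at 4 Gy and 207 CPM at 0 Gy, a ratio of 1.21 [1.13 to 1.30]. Ube2c in these cells had 8.42 CPM at 4 Gy and 2.87 CPM at 0 Gy (2.93 [1.77 to 5.07]). Cenpf had 3.80 CPM at 4 Gy and 1.44 CPM at 0 Gy (2.65 [1.28 to 6.03]). Mki67 had 6.80 CPM at 4 Gy and 2.87 CPM at 0 Gy (2.37 [1.41 to 4.15]). Cdk1 had 3.92 CPM at 4 Gy and 1.72 CPM at 0 Gy (2.27 [1.15 to 4.82]). These 4 genes rest on 10 to 73 UMIs per library. With a gate that asks for any lead over other lineages the mitotic ratio was 0.896, Cdk1 was at 0.943, Cenpf at 0.719 and Mki67 at 0.990, so the direction depends on the gate. After thinning the mitotic ratio was 1.04 and that of Cdk1 0.451. Carriers were 14 of 3229 cells at 4 Gy (0.434%) and 8 of 2189 cells at 0 Gy (0.365%), below the neutrophils' share, so no difference in shares is read. They held 434 of 1176 mitotic UMIs at 4 Gy and 210 of 789 at 0 Gy, and without them the mitotic ratio was 1.04 [0.928 to 1.16]. Of the S-phase genes, Mcm5 had 18.6 CPM at 4 Gy and 11.3 CPM at 0 Gy (1.64 [1.24 to 2.17]). Cdt1 had 28.9 CPM at 4 Gy and 20.8 CPM at 0 Gy (1.39 [1.13 to 1.72]). Mcm6 had 25.6 CPM at 4 Gy and 20.2 CPM at 0 Gy (1.26 [1.02 to 1.57], and 0.978 after thinning). Mcm7 had 22.8 CPM at 4 Gy and 19.96 CPM at 0 Gy (1.14 [0.916 to 1.43]). Pcna had 49.1 CPM at 4 Gy and 46.7 CPM at 0 Gy (1.05 [0.909 to 1.22]). Among genes of many UMIs, Cenpa had 57.8 CPM at 4 Gy and 58.6 CPM at 0 Gy (0.986 [0.863 to 1.13]). Hmgb2 had 65.6 CPM at 4 Gy and 63.3 CPM at 0 Gy (1.04 [0.913 to 1.18]). Stmn1 had 19.7 CPM at 4 Gy and 23.8 CPM at 0 Gy (0.827 [0.664 to 1.03]). Tubb4b had 138 CPM at 4 Gy and 158 CPM at 0 Gy (0.870 [0.801 to 0.945]).

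Interstitial macrophages had the lowest mitotic ratio of a class with at least 50 cells in both libraries, on 155 cells at 4 Gy and 68 at 0 Gy. The mitotic list had 192 CPM at 4 Gy and 701 CPM at 0 Gy, a ratio of 0.274 [0.233 to 0.321], with 18 of 20 measured genes at least 1.5-fold lower against 13.9% of all genes. The S-phase ratio was 0.875 [0.725 to 1.06]. These sums rest on 4 carriers at 4 Gy and 3 at 0 Gy, and 1 cell held 39.5% of the mitotic UMIs at 4 Gy and 45.4% at 0 Gy. Without carriers the mitotic ratio was 1.33 [0.806 to 2.29]. After thinning the mitotic ratio was 0.424 with 0 genes at least 1.5-fold lower, and without the top cell of each library 11 were lower. With at least 50 UMIs per gene 4 were lower (Ube2c, Birc5, Top2a and Cenpa), and fewer genes were measured. The S-phase ratio after thinning was 1.36. Ube2c had 10.8 CPM at 4 Gy and 137 CPM at 0 Gy (0.0791 [0.0414 to 0.140]). Cenpf had 4.65 CPM at 4 Gy and 40.6 CPM at 0 Gy (0.114 [0.0382 to 0.287]). Top2a had 11.6 CPM at 4 Gy and 71.1 CPM at 0 Gy (0.163 [0.0842 to 0.301]). In each of these the interval leaves out 1, on few cells. Cdk1 had 12.4 CPM at 4 Gy and 52.5 CPM at 0 Gy (0.236 [0.121 to 0.445]). Birc5 had 21.7 CPM at 4 Gy and 62.6 CPM at 0 Gy (0.346 [0.204 to 0.581], but 2.26 after thinning) and Cenpa 22.5 CPM at 4 Gy and 42.3 CPM at 0 Gy (0.531 [0.300 to 0.945], but 1.05 without the top cell of each library). S-phase genes were mixed. Rrm1 had 13.9 CPM at 4 Gy and 33.9 CPM at 0 Gy (0.412 [0.205 to 0.820]). Pcna had 64.3 CPM at 4 Gy and 66 CPM at 0 Gy (0.974 [0.658 to 1.46]). Mcm3 had 33.3 CPM at 4 Gy and 38.9 CPM at 0 Gy (0.855 [0.504 to 1.49]). The broad genes were lower. Stmn1 had 28.7 CPM at 4 Gy and 117 CPM at 0 Gy (0.245 [0.160 to 0.371]). Hmgb2 had 57.3 CPM at 4 Gy and 112 CPM at 0 Gy (0.513 [0.363 to 0.726]). Tubb4b had 109 CPM at 4 Gy and 163 CPM at 0 Gy (0.672 [0.515 to 0.880], but 1.02 after thinning).

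The remaining CD45-positive classes held few mitotic UMIs or few cells. NK cells had a mitotic ratio of 0.894 [0.683 to 1.17], which was 2.27 with the looser gate, and an S-phase ratio of 1.01 [0.896 to 1.15]. Classical monocytes had 1.26 [0.882 to 1.82], which was 0.794 after thinning, and an S-phase level of 125 CPM at 4 Gy and 70.3 CPM at 0 Gy, a ratio of 1.78 [1.34 to 2.37]. Neutrophils had mitotic and S-phase ratios of 0.865 [0.702 to 1.07] and 0.941 [0.724 to 1.23], and nonclassical monocytes of 0.744 [0.453 to 1.22] and 0.814 [0.608 to 1.09]. Carriers stood in 5 of 770 cells at 4 Gy (0.649%) and 2 of 378 cells at 0 Gy (0.529%) of the NK class. In the classical monocyte class they were 2 of 297 cells at 4 Gy (0.673%) and 1 of 166 cells at 0 Gy (0.602%), and both classes lay at or below the neutrophils' share. Dendritic cells were few, and a larger share of the conventional ones were carriers, at median depths of 8999.5 to 12852 UMIs. Conventional type 1 cells (cDC1) held 4 of 18 cells at 4 Gy (22.2%) and 3 of 19 cells at 0 Gy (15.8%). Type 2 cells (cDC2) held 3 of 44 cells at 4 Gy (6.82%) and 5 of 43 cells at 0 Gy (11.6%), while plasmacytoid cells held 0 of 48 at 4 Gy and 0 of 31 at 0 Gy. The mitotic list had 968 CPM at 4 Gy and 934 CPM at 0 Gy in cDC1 (1.04 [0.850 to 1.26]), and 221 CPM at 4 Gy and 526 CPM at 0 Gy in cDC2 (0.420 [0.326 to 0.537]). In cDC2 1 cell held 51.7% of these UMIs at 4 Gy and 66.3% at 0 Gy. Alveolar macrophages, 41 cells at 4 Gy and 16 at 0 Gy, had 672 CPM at 4 Gy and 80.1 CPM at 0 Gy (8.39 [4.30 to 18.7]), on 149 UMIs at 4 Gy, 55.7% of them in 1 cell, and 9 at 0 Gy.

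**Figure D4:**
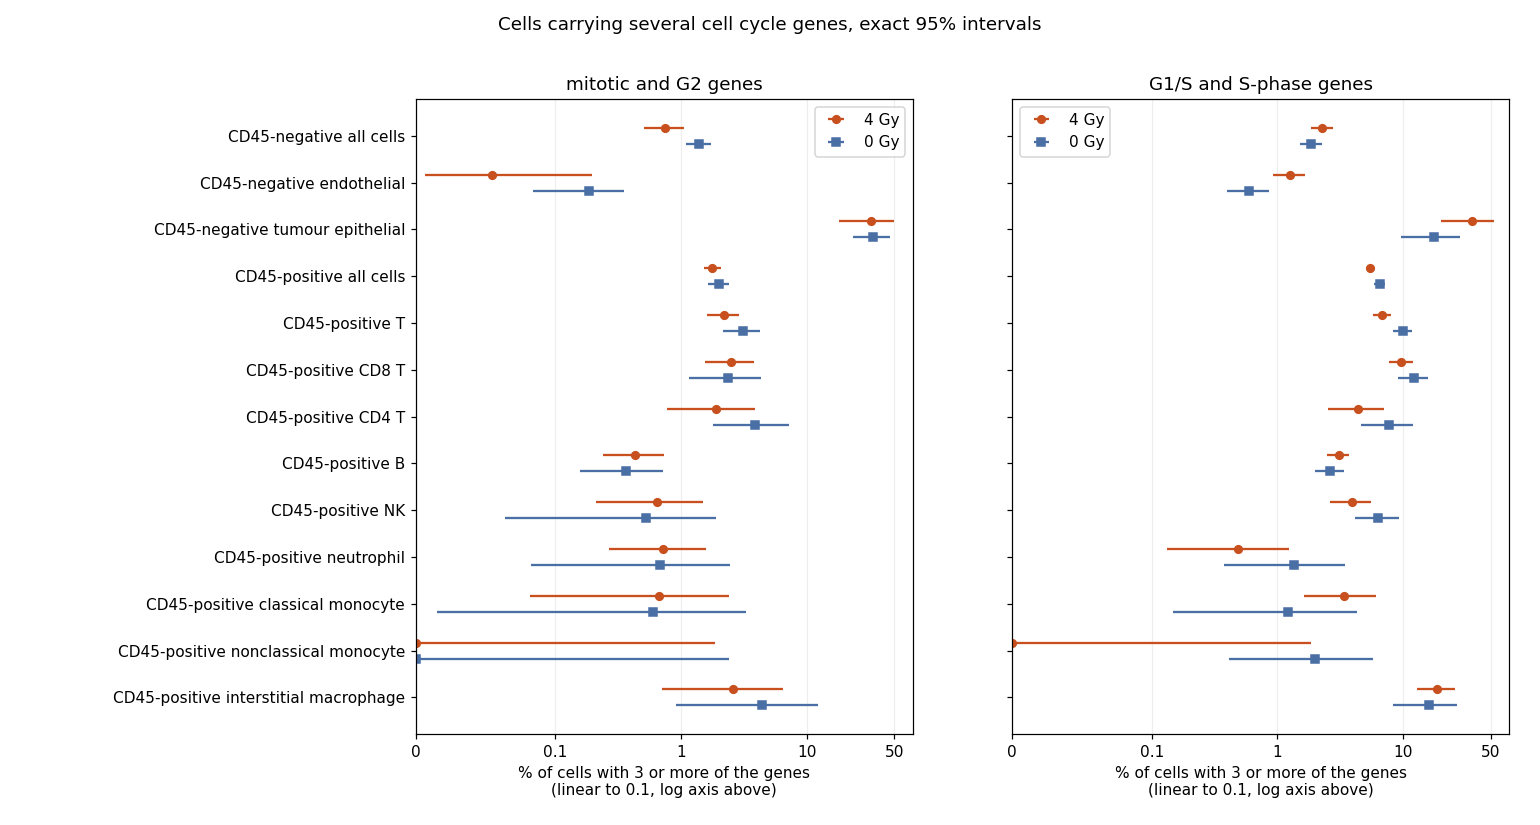
Share of cells that carry at least 3 different mitotic or S-phase genes, in percent, by cell class and dose, with exact 95% binomial intervals. Tumour epithelial cells reach 32.4% at 4 Gy and 33.8% at 0 Gy for the mitotic list, T cells 2.19% at 4 Gy and 3.09% at 0 Gy, and nonclassical monocytes 0 at both doses.

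**Figure D5:**
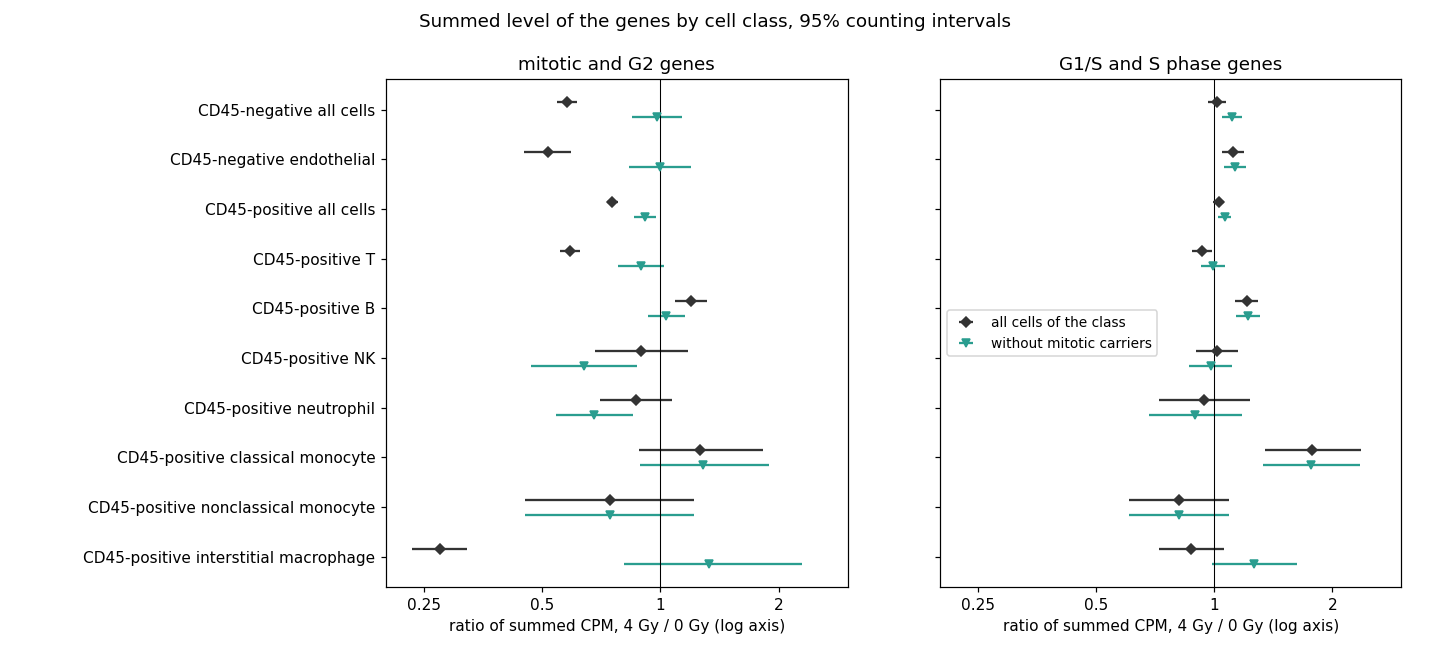
Ratio of summed CPM at 4 Gy over 0 Gy by class, on a log axis, for the mitotic list on the left and the S-phase list on the right, with 95% counting intervals, for all cells of a class and without mitotic carriers. The mitotic ratio of CD45-negative cells is 0.578 with carriers and 0.980 without.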

How the data were processed

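The 4 libraries are 10x 3′ single-cell RNA-seq, 1 per sort and dose, so no group has a replicate and no test was made. Log2 values, with cells in rows and genes in columns, were deposited for each library. In the values these are log2 of CPM plus 1 per cell, and 99.9994% to 99.9996% of the values above 0 gave whole UMIs within a tolerance of 0.02. STAR, Partek and Seurat and build mm10 are named, without role or version, per the submitters' processing notes. The genes and lists were chosen with earlier results of these data known.

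Scrublet, in scanpy 1.11.5, was run per library, with the expected rate of 0.8% per 1000 cells where the automatic threshold marked under 0.5%, and removed 149 cells at 4 Gy and 286 at 0 Gy (CD45-negative) and 608 at 4 Gy and 235 at 0 Gy (CD45-positive). A cell was put in the class with the largest share of its markers detected, with at least 2 markers and at least 2 times the share of any other lineage. UMIs were summed over cells and scaled to CPM. A gene was measured with at least 10 UMIs over both libraries, and counted as higher or lower at 1.5-fold on the ratio of CPM; log2 ratios are on CPM plus 5. Ratios have exact conditional binomial 95% intervals and shares Clopper-Pearson intervals, from scipy 1.17.1; a count of 0 allows up to 3 counts.

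Values are given for every member with at least 50 UMIs over both libraries of a sort. In endothelial, tumour epithelial, B, T and interstitial macrophage cells they are given for the 8 members with the most UMIs and for others at least 1.5-fold apart whose interval leaves out 1 with at least 30 UMIs. Pseudocounts of 1 and 50 CPM, minimums of 0 and 50 UMIs, all barcodes, equal weight per cell, another scaling, thinning to 1000 or 2000 UMIs, 2 or 5 genes per carrier and 3 markers per gate were alternatives; leaving out the cell with the most mitotic UMIs, a gate with any lead and 1.5-fold on CPM plus 5 were added after seeing the data. Lymphatic endothelium and aerocytes were not analysed here as classes, and plasma cells, gated in 5 cells at 4 Gy and 6 at 0 Gy, are not described. Alveolar type II and ciliated cells, with 0 mitotic genes measured, are not described either.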

Additional observations from a re-analysis of the deposited data

Results flagged for a closer look

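Some genes lay on opposite sides of 1 in different sorts or classes, with intervals that leave out 1 on both sides. None of these differences was tested, since each group is 1 library. Tubb4b had a ratio of 4 Gy over 0 Gy of 1.37 in the CD45-negative and 0.837 in the CD45-positive cells, and by class 1.31 in endothelial, 0.870 in B and 0.623 in T cells. The mitotic list had 1.20 in B cells, against 0.517 in endothelial and 0.589 in T cells. Ube2c had 2.93 in B cells, against 0.182 in endothelial and 0.494 in T cells. Cdk1 had 2.27 in B cells, against 0.170 in endothelial and 0.504 in T cells. Cenpf had 2.65 in B cells, against 0.412 in endothelial and 0.538 in T cells. Mki67 had 2.37 in B cells and 0.652 in T cells. The S-phase list had 1.11 in endothelial and 1.21 in B cells, against 0.930 in T cells. The B cell ratios of the mitotic list, Cdk1, Cenpf and Mki67 were below 1 with a gate that asked for any lead, and the T cell S-phase ratio was above 1 after thinning. In B cells carriers were 14 at 4 Gy and 8 at 0 Gy.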

How the results depend on the processing

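No paired analysis was possible because each group has 1 library. Of the recomputed list sums, medians, counts and shares, 548 stayed within their counting interval or within 1.5 times, 114 moved further, and 8 whose interval had left out 1 or 0 crossed it; values whose interval had included 1 also crossed it, and are counted with those that moved or stayed. For single genes the numbers were 813, 86 and 17. A median has no counting interval of its own, so the log2 width of its list's summed ratio interval was set around it. The lower summed mitotic ratio of CD45-negative cells held throughout, between 0.537 and 0.614. The cause of the shifts below was not tested, beyond the fact that thinning leaves fewer UMIs and fewer genes measured. A minimum of 50 UMIs per gene also leaves fewer genes measured. Among these settings a share over all genes is given only with 5 CPM added, for all CD45-negative and all CD45-positive cells. The other counts of genes below have no such share to be set against. With cells thinned to 1000 UMIs, the summed mitotic ratio was 0.614 in CD45-negative cells, 0.850 in endothelial cells, 0.810 in CD45-positive cells, 1.04 in B cells, 0.645 in T cells, 0.616 in NK cells, 0.794 in classical monocytes, 0.424 in interstitial macrophages, 1.01 in CD8 T cells, 0.487 in CD4 T cells and 0.572 in tumour epithelial cells. The median log2 ratio of mitotic genes was -0.21 in CD45-negative cells, -0.13 in CD45-positive cells and -0.41 in T cells. The summed S-phase ratio was 1.10 in CD45-negative cells, 1.12 in CD45-positive cells, 1.08 in T cells, 1.36 in interstitial macrophages and 1.06 in CD4 T cells. The median log2 ratio of S-phase genes was 0.16 in CD45-negative cells, 0.18 in CD45-positive cells and 0.0750 in T cells. The summed further S-phase ratio was 0.972 in CD45-negative cells. The ratio of single genes, now across 1, was 1.12 for Tpx2 in CD45-negative cells, 1.06 for Cenpa in CD45-negative cells, 2.62 for Prc1 in CD45-negative cells, 1.10 for Cenpf in CD45-positive cells, 1.47 for Prc1 in CD45-positive cells, 0.978 for Mcm6 in B cells, 0.451 for Cdk1 in B cells, 1.35 for Cdc20 in T cells, 1.08 for Cenpf in T cells, 2.26 for Birc5 in interstitial macrophages and 1.02 for Tubb4b in interstitial macrophages. The summed further mitotic ratio was 1.0 in CD45-positive cells. The ratio of S-phase carrier shares was 0.245 in NK cells. In the same recount the mitotic genes at least 1.5-fold lower numbered 9 in CD45-negative cells, 3 in endothelial cells, 5 in CD45-positive cells, 2 in B cells, 8 in T cells and 0 in interstitial macrophages, while the mitotic genes at least 1.5-fold higher numbered 1 in CD45-negative cells, 1 in endothelial cells, 1 in CD45-positive cells and 2 in B cells. Under this setting the S-phase genes at least 1.5-fold higher numbered 4 in CD45-negative cells, 2 in B cells and 2 in T cells, while the S-phase genes at least 1.5-fold lower numbered 0 in endothelial cells, 2 in T cells and 0 in interstitial macrophages. With equal weight per cell, the median log2 ratio of mitotic genes was -0.28 in CD45-negative cells, -0.0734 in CD45-positive cells and -0.37 in T cells. The summed further S-phase ratio was 0.969 in CD45-negative cells. The summed further mitotic ratio was 0.904 in CD45-negative cells and 1.04 in CD45-positive cells. The summed mitotic ratio was 0.702 in endothelial cells, 0.890 in CD45-positive cells, 1.03 in B cells, 0.654 in T cells, 0.323 in interstitial macrophages, 0.865 in CD8 T cells and 0.582 in tumour epithelial cells. The summed S-phase ratio was 1.09 in CD45-positive cells, 0.895 in CD4 T cells and 0.778 in gamma-delta T cells. The ratio of single genes, now across 1, was 1.44 for Cenpf in CD45-positive cells and 0.937 for Cenpa in tumour epithelial cells. Here the S-phase genes at least 1.5-fold lower numbered 2 in CD45-negative cells and 0 in CD45-positive cells, while the S-phase genes at least 1.5-fold higher numbered 3 in CD45-negative cells and 2 in B cells. In the same recount the mitotic genes at least 1.5-fold higher numbered 2 in endothelial cells, while the mitotic genes at least 1.5-fold lower numbered 2 in CD45-positive cells and 2 in B cells. With a gate of any lead (added after seeing the data), the summed mitotic ratio was 0.610 in endothelial cells, 0.896 in B cells, 2.27 in NK cells, 1.85 in classical monocytes, 0.358 in interstitial macrophages and 0.643 in CD8 T cells. The ratio of single genes, now across 1, was 0.990 for Mki67 in B cells, 0.943 for Cdk1 in B cells and 0.719 for Cenpf in B cells. The summed S-phase ratio was 1.18 in NK cells. Under this setting the mitotic genes at least 1.5-fold higher numbered 1 in endothelial cells and 2 in B cells, while the mitotic genes at least 1.5-fold lower numbered 3 in B cells. Here the S-phase genes at least 1.5-fold lower numbered 2 in B cells, while the S-phase genes at least 1.5-fold higher numbered 0 in B cells and 2 in interstitial macrophages. Without the top mitotic cell (added after seeing the data), the summed mitotic ratio was 0.537 in CD45-negative cells, 0.345 in CD4 T cells and 0.397 in gamma-delta T cells. The median log2 ratio of mitotic genes was -0.47 in CD45-negative cells. The ratio of single genes, now across 1, was 1.05 for Cenpa in interstitial macrophages. The summed S-phase ratio was 0.823 in gamma-delta T cells. Under this setting the S-phase genes at least 1.5-fold higher numbered 3 in B cells, while the mitotic genes at least 1.5-fold lower numbered 11 in interstitial macrophages. Here the mitotic genes at least 1.5-fold higher numbered 1 in interstitial macrophages. With a pseudocount of 1 CPM, the median log2 ratio of mitotic genes was -0.55 in CD45-negative cells, -0.55 in endothelial cells, -0.42 in CD45-positive cells and -0.76 in T cells. With a pseudocount of 50 CPM, the median log2 ratio of mitotic genes was -0.0723 in CD45-negative cells, -0.0599 in CD45-positive cells and -0.15 in T cells. The median log2 ratio of S-phase genes was -0.0332 in T cells. With at least 50 UMIs per gene, the median log2 ratio of S-phase genes was 0.22 in endothelial cells. Under this setting the mitotic genes at least 1.5-fold lower numbered 4 in endothelial cells and 4 in interstitial macrophages, while the S-phase genes at least 1.5-fold lower numbered 0 in endothelial cells, 3 in T cells and 0 in interstitial macrophages. Here the mitotic genes at least 1.5-fold higher numbered 2 in B cells, while the S-phase genes at least 1.5-fold higher numbered 0 in interstitial macrophages. With 5 genes per carrier, the ratio of S-phase carrier shares was 0.854 in CD45-negative cells and 0.891 in endothelial cells. With cells thinned to 2000 UMIs, the ratio of S-phase carrier shares was 0.909 in CD45-negative cells, 1.12 in CD45-positive cells, 2.39 in B cells and 0.499 in CD8 T cells. With all barcodes kept, the summed mitotic ratio was 0.617 in endothelial cells. In the same recount the S-phase genes at least 1.5-fold lower numbered 2 in CD45-positive cells. With median-of-ratios scaling, the S-phase genes at least 1.5-fold lower numbered 1 in CD45-negative cells. With no minimum of UMIs, the S-phase genes at least 1.5-fold lower numbered 1 in B cells and 5 in interstitial macrophages. With 5 CPM added before the fold (added after seeing the data), the mitotic genes at least 1.5-fold lower numbered 5 in CD45-negative cells, 3 in endothelial cells, 0 in CD45-positive cells and 9 in T cells, while the S-phase genes at least 1.5-fold lower numbered 0 in endothelial cells, 0 in CD45-positive cells and 1 in T cells. Under this setting the S-phase genes at least 1.5-fold higher numbered 0 in endothelial cells and 0 in B cells, while the mitotic genes at least 1.5-fold higher numbered 1 in B cells. Depth limits genes with few UMIs and classes with few cells, and the intervals leave out the spread between mice.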
